A study of Mus musculus with 5 samples.

Results

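The transcription factors described here are those of the TCF/LEF, E protein, Id, Ikaros and Bcl11b groups that direct T cell development, with Myb beside them. They were chosen by symbol, as 10 genes. The platform annotation used here named a probe for 8 of the 10: Lef1, Tcf3, Tcf12, Bcl11b, Id2, Id3, Ikzf1 and Ikzf3, out of 16504 named genes. Tcf7 and Myb were not analysed here. Each of the 8 genes had 1 probe, so none could be checked against a further probe of its own.

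The study set the thymus of ZAS3-null mice against that of wild-type mice. Hivep3 encodes ZAS3, whose zinc fingers recognise kappaB-like sequences. Both genotypes were littermates of 6 to 8 weeks, paired for sex and age. The strain, the allele and the part of the gene removed are not given in the sources used here. On each of 5 two-colour arrays, RNA from a whole ZAS3-null thymus was hybridised with RNA from a whole wild-type thymus, and the labels number the thymuses from 1 to 5. There was thus 1 group of 5 log2 ratios, with no dye swap and no array of like against like. The sample labels speak of whole thymus, while the series text speaks of thymocytes. A ratio gives no level, so the presence of the tissue's defining markers could not be checked.

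The sign of the ratios has no settled meaning. The sample labels place ZAS3-null RNA in Cy5 and the series text places it in Cy3, so ratios are called positive or negative and no genotype is named as higher. All 5 arrays carry the same labels, and their ratios correlated positively over the named genes, with r from 0.19 to 0.70 for the 10 pairs of arrays as deposited (median 0.48) and from 0.07 to 0.62 (median 0.33) once the trend across the slide described next was removed. Those genes are not independent replicates. Ratios also depended on where a spot lay on the slide. On each array the median of the first 10 columns of spots was between -0.25 and -0.11, and that of the last 10 between 0.23 and 0.31. The ratios of the factors are therefore given as deposited and after subtraction of the median of the surrounding 21 by 21 spots, called position correction. Array 2 had the widest spread over its spots, with an SD of 0.66 as deposited and 0.649 after correction. On the other arrays the SD was between 0.319 and 0.385 as deposited, and between 0.266 and 0.357 after correction. On these arrays 2 probes of the same gene correlated at only 0.24 as deposited and 0.11 after correction (1428 pairs). Hivep3 itself had a mean ratio of 0.08 ± 0.07 as deposited (SD, n = 5; limma adjusted p = 0.3697), positive on 4 of 5 arrays. After correction its mean was 0.17 ± 0.09 with an interval of 0.02 to 0.32, positive on 5 of 5 arrays (adjusted p = 0.1411; unadjusted 0.02994). These values average 2 probes that differed. The first had 0.14 ± 0.11 as deposited and 0.20 ± 0.12 after correction. The second had 0.01 ± 0.20 and 0.14 ± 0.24, with corrected ratios of -0.03 on array 1 and -0.16 on array 3. With the part of the gene removed and the place of its probes in it not known here, these values do not settle the sign.

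As background, T cell identity in the thymus is built by a small circle of factors. TCF-1 (Tcf7) and LEF-1 bind DNA through an HMG box and act with beta-catenin or with corepressors of the TLE family. The E proteins E2A (Tcf3) and HEB (Tcf12) are basic helix-loop-helix factors that bind E boxes and drive receptor gene rearrangement. Id proteins pair with them and keep them off DNA. Bcl11b holds cells in the T lineage, and Ikaros (Ikzf1) and Aiolos (Ikzf3) are zinc finger factors that bring the NuRD chromatin remodelling complex to DNA.

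The genes whose ratios passed the test as deposited were Lef1, Bcl11b and Tcf3. The bases before their annotated starts are shown as 1 of the stretches on which such factors can act. RefSeq promoter sequences (GRCm38.p6) were found for 7 of the 8 measured genes. Lef1 had 4 listed starts, and Bcl11b and Tcf3 had 1 each. The 250 bases before the first listed start are printed 5′ to 3′ on the gene's strand, and capitals mark matches to a loose kappaB-like pattern (GGG, any 5 bases, CC), CANNTG (the E box) or CTTTGA (bound by TCF/LEF factors), searched on both strands. The Lef1 window is chr3:131110047-131110296 on the plus strand, that of Bcl11b is chr12:108003415-108003664 on the minus strand, and that of Tcf3 is chr10:80433636-80433885 on the minus strand.
Lef1: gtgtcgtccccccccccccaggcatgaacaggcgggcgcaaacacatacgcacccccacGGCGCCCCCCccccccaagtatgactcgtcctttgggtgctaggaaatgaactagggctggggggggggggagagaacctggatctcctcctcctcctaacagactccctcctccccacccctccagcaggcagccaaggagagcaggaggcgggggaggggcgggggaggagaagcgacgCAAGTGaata
Bcl11b: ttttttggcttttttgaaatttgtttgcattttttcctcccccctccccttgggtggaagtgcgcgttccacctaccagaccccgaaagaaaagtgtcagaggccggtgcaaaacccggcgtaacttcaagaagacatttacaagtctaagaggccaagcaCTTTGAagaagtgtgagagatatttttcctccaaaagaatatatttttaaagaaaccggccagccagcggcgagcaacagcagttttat
Tcf3: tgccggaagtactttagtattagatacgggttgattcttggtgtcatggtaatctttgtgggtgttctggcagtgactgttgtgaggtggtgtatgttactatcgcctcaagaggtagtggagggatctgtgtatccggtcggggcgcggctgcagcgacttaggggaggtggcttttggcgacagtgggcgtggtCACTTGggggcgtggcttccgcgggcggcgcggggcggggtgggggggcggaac

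These windows differed in the letters they held. Lef1 had a kappaB-like match that begins 191 bases before the start and an E box 10 bases before it. Tcf3 had an E box 54 bases before the start, and Bcl11b had CTTTGA 89 bases before it and none of the other motifs. Over 27025 promoters of the same length, 45.4% held the kappaB-like letters, 66.0% an E box and 14.0% CTTTGA. Of the 7 genes with a listed promoter, 4 held the kappaB-like letters, 4 an E box and 1 CTTTGA. The kappaB-like letters occurred 4 times before Ikzf1 and 4 times before Id3, some of them overlapping. ZAS3 is also known to bind the heptamer of recombination signal sequences, CACAGTG. It was found before Id3 alone of the 7, against 5.5% of all promoters. A match is a string of letters and not a shown site.

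As deposited, the mean ratio was negative for all 8 genes, and 3 of them passed an adjusted p of 0.05 in limma (Lef1, Bcl11b and Tcf3). Over all named genes, 12.9% were negative past that threshold and 12.0% positive. None of the 8 was positive past it. After position correction 0 of the 8 passed in limma, while 3 had an unadjusted p under 0.05 (Lef1, Bcl11b and Tcf12), against background shares of 2.30% negative and 0.612% positive past the threshold, or 2.91% in either direction. None of the 8 passed on both scales, where 1.86% of named genes were negative past the threshold both times. At an unadjusted p under 0.05 the share was 27.0% of the named genes after correction. The median of the 8 means was -0.30 as deposited and -0.22 after correction, against -0.03 and -0.01 for all named genes. All 5 ratios were negative for 5 of the 8 genes as deposited and for 2 after correction, where 20.5% and 14.5% of named genes had 5 negative ratios. The rule of the series text, a 1.5-fold ratio one way on at least 4 arrays, was met by 0 of the 8 on either scale, and by 0.460% of named genes on the negative side as deposited and 0.194% after correction. On the positive side these shares were 0.406% and 0.0485%.

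**Figure D1:**
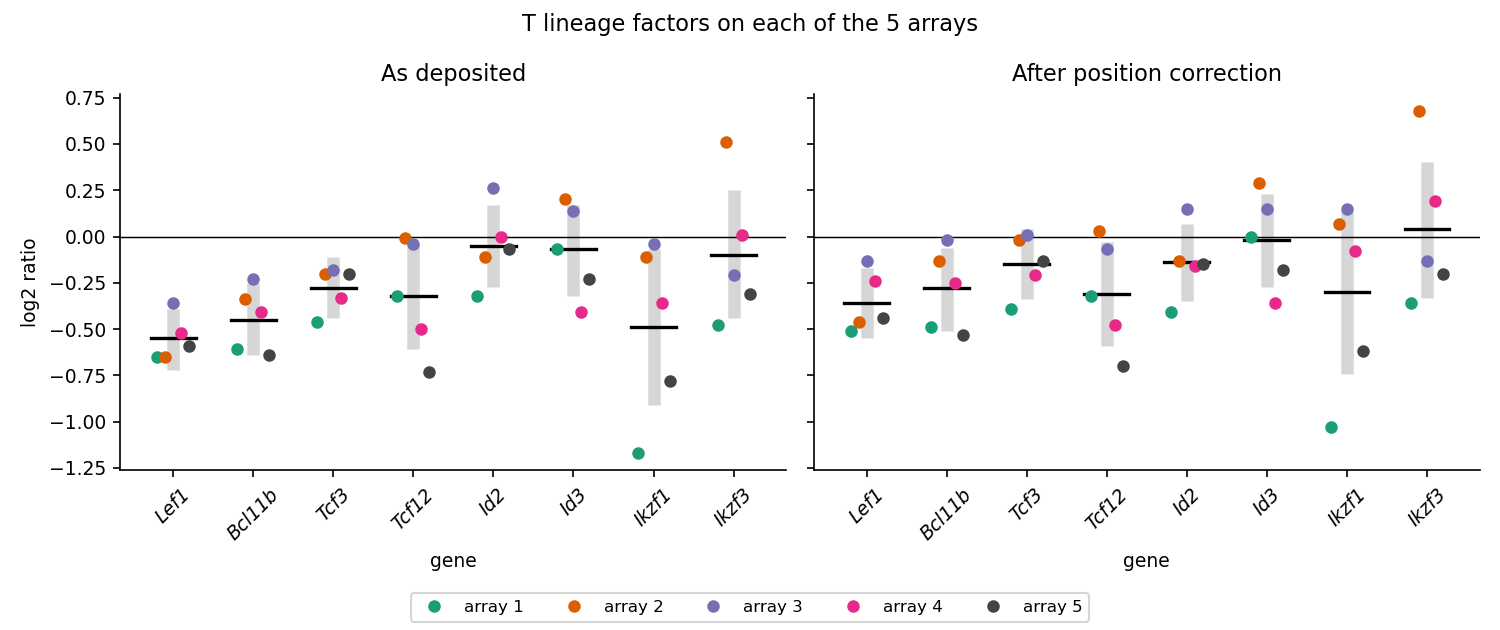
Log2 ratio of each of the 8 genes on each array, as deposited (left) and after position correction (right). Points are arrays, black lines are means and grey bars are 95% intervals of the mean from the limma fit; Lef1 lies below 0 on every array in both panels, and Ikzf1 ranges from -1.17 to -0.04 as deposited.

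Lef1, the HMG box factor, had the lowest mean of the 8. Its ratios as deposited were -0.65, -0.65, -0.36, -0.52 and -0.59 on arrays 1 to 5, with a mean of -0.55 ± 0.12 (SD, n = 5), which is 1.47-fold, a 95% interval of -0.72 to -0.39 and a limma adjusted p of 0.0054. Every array was negative, and array 3 was the nearest to 0. Only 2.1% of named genes had a lower mean. With any one array left out the mean stayed between -0.60 and -0.53, and the adjusted p between 0.008348 and 0.03828. After position correction the ratios were -0.51, -0.46, -0.13, -0.24 and -0.44, again all negative. The corrected mean was -0.36 ± 0.16 with an interval of -0.55 to -0.17, and its adjusted p of 0.0575 missed the threshold.

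Bcl11b, the zinc finger factor of T lineage commitment, had -0.61, -0.34, -0.23, -0.41 and -0.64 as deposited. All 5 were negative, with arrays 1 and 5 the lowest and array 3 the highest. The mean was -0.45 ± 0.18 (SD, n = 5; 1.36-fold; limma adjusted p = 0.0134). The call was lost without array 4 (adjusted p = 0.05257) or array 5 (0.06162). After correction the ratios were -0.49, -0.13, -0.02, -0.25 and -0.53, with the same arrays at the ends. The corrected mean was -0.28 ± 0.22 (adjusted p = 0.1164).

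The E protein genes both had negative means. Tcf3, which encodes E12 and E47, had -0.46, -0.20, -0.18, -0.33 and -0.20 as deposited, a mean of -0.28 ± 0.12 (SD, n = 5; 1.21-fold; limma adjusted p = 0.0319). All 5 arrays were negative, and array 1 stood lowest. The call held without array 2 (adjusted p = 0.03314) and was lost without array 1, 3, 4 or 5 (0.0803, 0.05489, 0.1045 and 0.09418). After correction the mean of Tcf3 was -0.15 ± 0.16, with an interval of -0.34 to 0.04 and 4 of 5 arrays negative, and it was -0.09 without array 1. Tcf12, its partner HEB, had -0.32, -0.01, -0.04, -0.50 and -0.73 as deposited. Arrays 2 and 3 were close to 0 and array 5 was lowest. The mean of Tcf12 was -0.32 ± 0.30 (limma adjusted p = 0.0945), and it passed without array 2 (mean -0.40; adjusted p = 0.04867). Correction left it almost as it was, at -0.31 ± 0.30 (adjusted p = 0.1486).

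The genes of the Id proteins, which oppose the E proteins, had means close to 0. Id2, known from innate lymphoid and NK cells, had -0.32, -0.11, 0.26, 0.00 and -0.07 as deposited, and a mean of -0.05 ± 0.21 (SD, n = 5; limma adjusted p = 0.7196). The interval of -0.27 to 0.17 bounds the change on this scale. Id2 was the only one of the 8 whose mean moved away from 0 with correction, to -0.14 ± 0.20 (interval -0.35 to 0.07), and to -0.07 without array 1. Id3, which T cell receptor signals induce in thymocytes, had -0.07, 0.20, 0.14, -0.41 and -0.23, so that arrays 2 and 3 were positive and the others negative. Its mean was -0.07 ± 0.25 as deposited (limma adjusted p = 0.6235) and -0.02 ± 0.26 after correction. The signs of both as-deposited means, and of the corrected mean of Id3, depended on single arrays: Id2 had 0.02 without array 1, and Id3 had 0.01 as deposited and 0.06 after correction without array 4, and 0.02 after correction without array 5.

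Ikzf1, the gene of Ikaros, varied most between arrays. Its ratios as deposited were -1.17, -0.11, -0.04, -0.36 and -0.78. Arrays 1 and 5 were far below 0 while arrays 2 and 3 were near it. The SD of 0.48 exceeded that of 92.6% of named genes, and the mean of -0.49 did not pass (1.41-fold; limma adjusted p = 0.0856). After correction the ratios were -1.03, 0.07, 0.15, -0.08 and -0.62, with a mean of -0.30 ± 0.50 (SD, n = 5; adjusted p = 0.3142) and both signs present. Without array 1 the mean was -0.32 as deposited and -0.12 after correction, both over 1.5 times nearer to 0. Ikzf3, the gene of Aiolos, had -0.48, 0.51, -0.21, 0.01 and -0.31 as deposited, where array 2 was the highest value of any of the 8 genes. Its mean was -0.10 ± 0.38 (limma adjusted p = 0.6462), and 0.04 ± 0.41 after correction. Single arrays decided both means of Ikzf3: without array 2 they were -0.25 as deposited and -0.12 after correction, and without array 1 they were 0.00 and 0.13.

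Related factors were set against each other within each array. The Tcf7 and Lef1 pair could not be formed, which left 3 pairs, and with 5 arrays the exact two-sided sign-flip test cannot give a p below 0.0625. Ikzf1 minus Ikzf3 was -0.69, -0.62, 0.17, -0.37 and -0.47 on arrays 1 to 5, a mean of -0.40 ± 0.34 that was negative on 4 of 5 arrays (exact p = 0.125; adjusted over the 3 pairs 0.375; 95% interval -0.82 to 0.03). Tcf3 minus Tcf12 was 0.05 ± 0.30 (n = 5; exact p = 0.8125; adjusted 0.875; interval -0.33 to 0.42). Id2 minus Id3 was 0.03 ± 0.30 (n = 5; exact p = 0.875; adjusted 0.875; interval -0.35 to 0.40). Neither of the last 2 pairs differed beyond the spread between arrays, and the intervals leave room for differences of about the size of the ratios themselves. After correction these means were -0.34, 0.16 and -0.12, so the sign of Id2 minus Id3 changed (interval -0.46 to 0.23).

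Spots around most of the factors also had ratios below 0 as deposited. The spots of the genes lay in slide columns 4 (Ikzf1), 25 (Ikzf3), 28 (Lef1), 36 (Id3), 40 (Bcl11b), 42 (Tcf12), 52 (Tcf3) and 66 (Id2), mostly on the side where ratios were low. Around Lef1 the local median averaged -0.20 over the arrays, and 29.0% of 359 neighbouring named genes were negative past the threshold as deposited. Lef1 still lay low among them, since 5.3% had a lower mean. Around Bcl11b the local median was -0.16, 21.8% of 362 neighbours were negative past the threshold, and 8.6% had a lower mean. Around Tcf3 the local median was -0.13, with 17.6% of 358 neighbours negative past the threshold and 21.5% lower than Tcf3. Around Tcf12 the local median was -0.01, and 9.5% of 370 neighbours had a lower mean. Id2 was the exception in position, with a local median of 0.09.

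**Figure D2:**
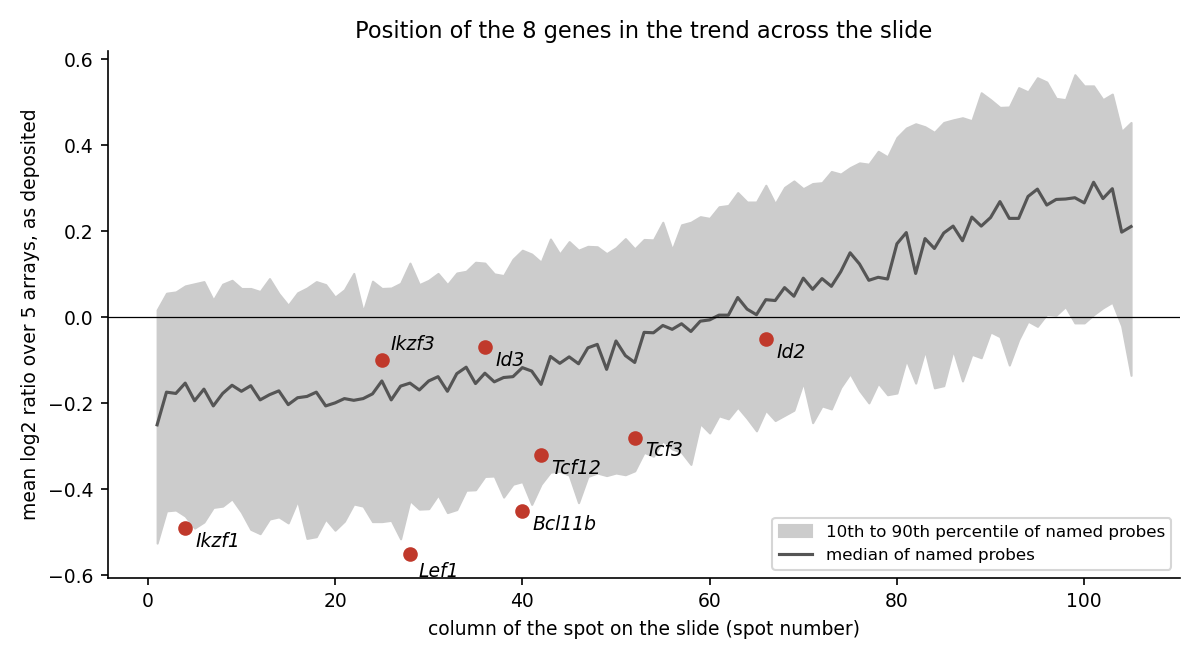
Mean log2 ratio over the 5 arrays as deposited (vertical axis) against the column of the spot on the slide (horizontal axis). The line is the median and the band the 10th to 90th percentile of named probes in each column; Lef1 (-0.55), Ikzf1 (-0.49) and Bcl11b (-0.45) lie below the band, and the other 5 genes lie inside it.

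The arrays differed in how far the factors lay from 0. The median of the 8 genes as deposited was -0.47, -0.11, -0.11, -0.38 and -0.45 on arrays 1 to 5, and -0.40, 0.00, -0.01, -0.23 and -0.32 after correction. All 8 genes were negative on arrays 1 and 5 as deposited. Markers of CD4+CD8+ thymocytes and of T cells in general, taken as 1 list, were also lowest on arrays 1 and 5. Of the 16 markers, 15 were measured. Their median was -0.36, 0.07, -0.06, -0.24 and -0.37 as deposited and -0.32, 0.12, -0.05, -0.28 and -0.31 after correction. Of these 15 markers, 5 were negative and 3 positive past the threshold as deposited. After correction 0 passed in limma, with 9 at an unadjusted p under 0.05. Over all named genes, 12.9% were negative and 12.0% positive past the threshold as deposited. At an unadjusted p under 0.05 their share after correction was 27.0%. In whole thymus, a difference in the number of cells of a type and a difference in RNA per cell cannot be told apart. B cell markers (11 of 12 measured) had array medians between 0.11 and 0.30 as deposited and between 0.01 and 0.24 after correction, with 5 positive and 2 negative past the threshold as deposited. After correction 0 of the 11 passed in limma, with 6 at an unadjusted p under 0.05. Ikzf3 and Tcf3 are also B cell genes. Erythroid markers (6 of 9 measured) had a median of 0.73 on array 2, the array with the highest Ikzf3, and between -0.08 and 0.27 on the other arrays. Array 2 was also the array with the widest spread over all its spots (SD 0.66 as deposited). Markers of NK and innate lymphoid cells (10 of 11), of dendritic cells and macrophages (9 of 12) and of thymic epithelium (12 of 12) had array medians between -0.16 and 0.20 as deposited. Of the 12 epithelial markers, 1 was negative and 1 positive past the threshold as deposited, and 0 and 1 after correction. Among all named genes, 2.30% were negative and 0.612% positive past it after correction. Epithelial means were negative for 6 of the 12 as deposited and for 5 after correction. The positive call was Foxn1, at 0.54 ± 0.11 as deposited (SD, n = 5; limma adjusted p = 0.0052). It had 0.56 ± 0.16 after correction (adjusted p = 0.0135) and was positive on all 5 arrays both times. The negative call was Ccl25, at -0.25 ± 0.06 as deposited (limma adjusted p = 0.0245). It had -0.16 ± 0.09 after correction (adjusted p = 0.1592) and was negative on all 5 arrays both times. Both were named after their values were seen. The part of these cell types in the factor ratios was not tested.

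**Figure D3:**
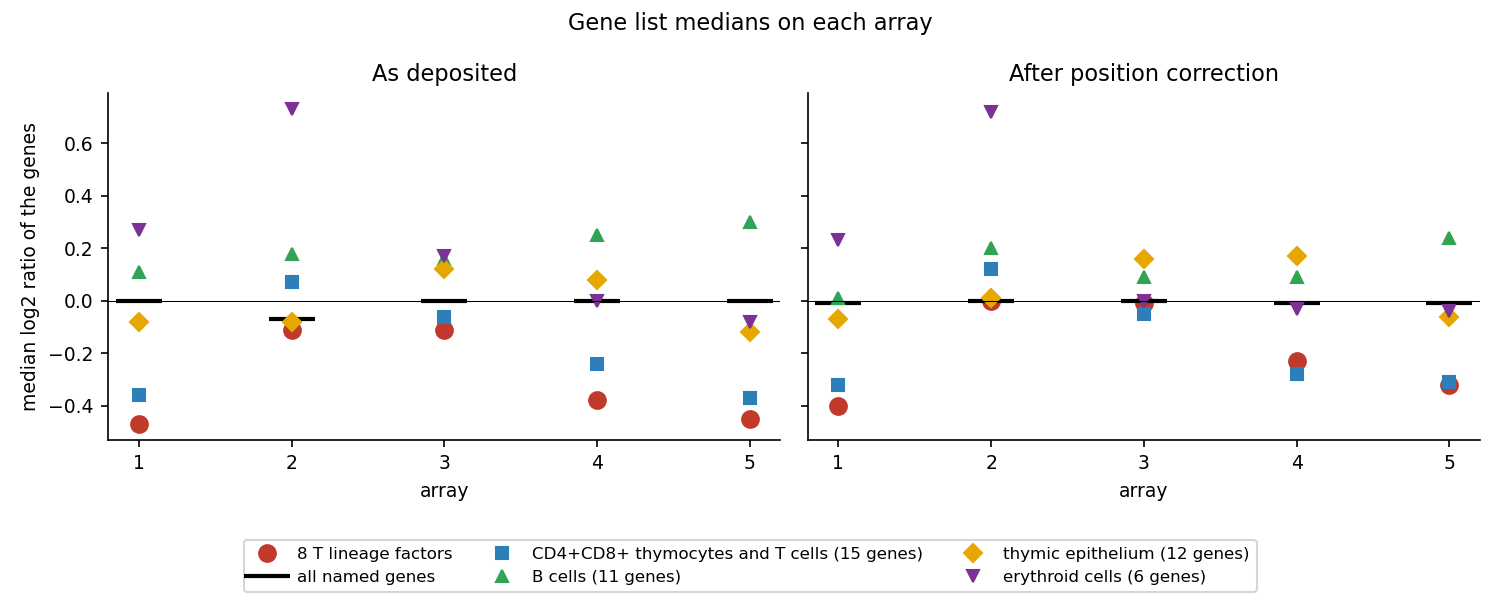
Median log2 ratio (vertical axis) of the 8 factors, of marker genes of 4 cell types and of all named genes on each of the 5 arrays (horizontal axis), as deposited on the left and after position correction on the right. The factors and the thymocyte and T cell markers are both low on arrays 1, 4 and 5, and the erythroid markers are high on array 2.

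The partners of LEF-1 included the only TCF/LEF cofactor that passed on both scales. Tle3, a corepressor that binds TCF/LEF factors, had -0.90, -0.58, -0.57, -0.63 and -0.89 as deposited and a mean of -0.71 ± 0.17 (SD, n = 5; 1.64-fold; limma adjusted p = 0.0038). After correction it had -0.58 ± 0.22 (adjusted p = 0.0272), and that call was lost without array 1, 3, 4 or 5 (0.09665, 0.0634, 0.1193 and 0.1341). All 5 arrays were negative on both scales, and only 0.5% of named genes had a lower mean as deposited. Of 24 measured TCF/LEF cofactors and Wnt pathway genes, 6 were negative and 2 positive past the threshold as deposited, and 1 and 0 after correction. Their median was -0.22 and -0.11. Among all named genes the shares were 12.9% negative and 12.0% positive as deposited, and 2.30% and 0.612% after correction. The TLE genes did not all go one way: as deposited Tle4 (-0.49 ± 0.16) and Tle1 (-0.24 ± 0.10) were negative and Tle2 (0.37 ± 0.03) positive past the threshold, and none of these 3 passed after correction. Tle1 no longer passed when array 1, 3, 4 or 5 was left out (highest adjusted p 0.1375), nor Tle4 when array 5 was (0.05207). The Tle2 spot lay in column 100, on the side of high ratios, and its corrected mean was 0.10 ± 0.06. Of the relatives of Lef1, Tcf7l2 was singled out after its values were seen: it ran from -1.14 to 0.60 over the arrays as deposited, with a corrected mean of -0.73 ± 0.71 (adjusted p = 0.1271).

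Among partners and relatives of the E and Id proteins, 21 genes were measured. Of these, 2 were negative and 3 positive past the threshold as deposited, and 0 and 1 after correction. In either direction, 24.8% of all named genes passed as deposited and 2.91% after correction. The gene that passed on both scales was Msc (musculin), a basic helix-loop-helix repressor, with 0.48, 0.38, 0.15, 0.23 and 0.26 as deposited. Its mean was 0.30 ± 0.13 (SD, n = 5; limma adjusted p = 0.0265) and 0.33 ± 0.11 after correction (adjusted p = 0.0464). All 5 arrays were positive. As deposited, Msc no longer passed without array 1, 4 or 5, with an adjusted p of at most 0.09173. The corrected call was lost without array 1, 3, 4 or 5 (up to 0.1902) or with another form of the correction (up to 0.08194). The list median was 0.08 as deposited and -0.01 after correction.

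Of 21 measured genes of the Ikaros family and the NuRD complex, 5 were negative and 2 positive past the threshold as deposited. The list median was -0.06. Of all named genes, 12.9% were negative and 12.0% positive past it. After correction 0 passed in limma and 7 had an unadjusted p under 0.05, as did 27.0% of all named genes. Chd4, the remodelling ATPase through which Ikaros binds NuRD, had -0.93, -0.48, -0.21, -0.58 and -0.76 as deposited, with arrays 1 and 5 lowest as for Ikzf1. Its mean was -0.59 ± 0.27 (SD, n = 5; 1.51-fold; limma adjusted p = 0.0139). Position correction gave it -0.44 ± 0.29 (adjusted p = 0.0753). The call was lost without array 4 (0.05513) or array 5 (0.06353). Rbbp7, a histone-binding subunit, had -0.52 ± 0.13 (adjusted p = 0.0068) and -0.33 ± 0.16 after correction (0.0638). Ctbp1, a corepressor that Ikaros also binds, had -0.38 ± 0.09 (adjusted p = 0.0105, and 0.05753 without array 5) and -0.21 ± 0.07 after correction (0.0896).

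Of 29 other T lineage transcription factors, 5 were negative and 1 positive past the threshold as deposited. After correction 0 passed in limma, with 9 at an unadjusted p under 0.05. Among all named genes, 12.9% were negative and 12.0% positive past the threshold as deposited. Their share at an unadjusted p under 0.05 after correction was 27.0%. Tox, an HMG box factor needed for CD4+ cells, had -0.61 ± 0.15 (SD, n = 5; limma adjusted p = 0.0053) and -0.41 ± 0.18 after correction (adjusted p = 0.0501, and 0.04602 without array 2). Tox did pass in limma with each of the 3 other forms of the correction (adjusted p from 0.03679 to 0.04973). Under these, Il7r, Tle3 and Tox were called on the lists of partners and targets, in place of Il7r, Tle3 and Msc. Gfi1, a zinc finger repressor of lymphoid progenitors, had -0.26 ± 0.19 (adjusted p = 0.0661) and -0.39 ± 0.20 after correction (0.0609, and 0.03777 without array 2). Klf2, a factor of thymocyte egress, had -0.04 ± 0.17 and, on the side of the slide with high ratios, -0.33 ± 0.15 after correction (adjusted p = 0.0607). Gata3, an essential factor of early T cells, had 0.08 ± 0.08 as deposited, positive on 4 of 5 arrays. After correction it had -0.14 ± 0.10, negative on 5 of 5 arrays (limma adjusted p = 0.212).

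Of 32 measured genes reported as targets of these factors, 5 were negative and 3 positive past the threshold as deposited, and 1 and 0 after correction. Their median as deposited was -0.06. Of all named genes, 24.8% passed in either direction as deposited and 2.91% after correction. Il7r, the alpha chain of the interleukin-7 receptor, passed both times. Its ratios were -0.37, -0.54, -0.08, -0.25 and -0.19 as deposited and -0.57, -0.62, -0.36, -0.54 and -0.42 after correction, negative on every array. The mean went from -0.29 ± 0.17 (SD, n = 5; limma adjusted p = 0.046) to -0.50 ± 0.11 (adjusted p = 0.011), since its spot in column 79 lay among positive ratios. The call as deposited was lost without any one array (adjusted p up to 0.1173), and the corrected call without array 1, 4 or 5 (up to 0.07866). Ptcra, the pre-T cell receptor chain activated by E proteins, was positive on all 5 arrays, with 0.35 ± 0.11 as deposited (adjusted p = 0.0138) and 0.33 ± 0.15 after correction (0.0628). Rag1, whose expression E proteins support, was negative on all 5 as deposited (-0.81 ± 0.37; adjusted p = 0.0122) and had -0.61 ± 0.41 after correction (0.071). As deposited, both calls were lost without array 4 (adjusted p 0.05726 for Ptcra and 0.05066 for Rag1) or array 5 (0.05968 and 0.05786). Ptcra and Rag1, like Gata3 and the other TLE genes, were singled out after their values were seen.

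**Figure D4:**
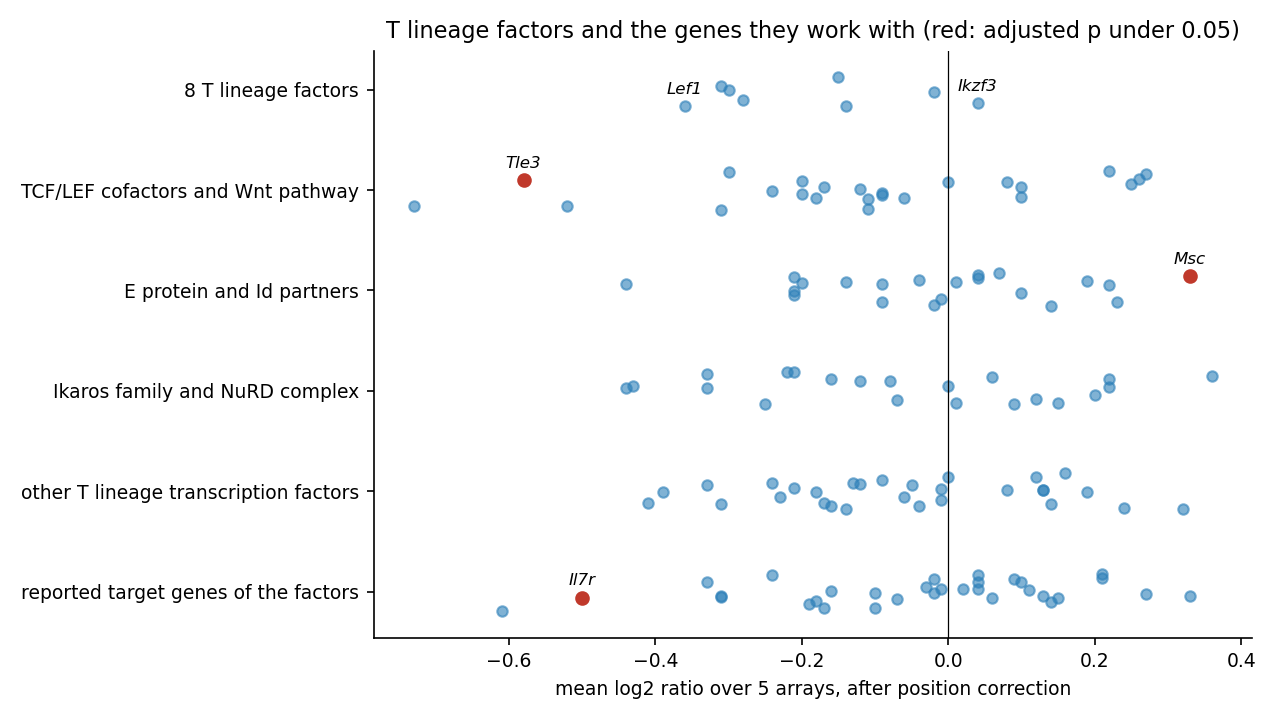
Mean log2 ratio over 5 arrays after position correction (horizontal axis) of the 8 factors and of the genes of 5 lists of partners and targets (rows; points are spread within a row only for visibility). Red points, Tle3, Msc and Il7r, have an adjusted p under 0.05; 7 of the 8 factors lie below 0.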

How the data were processed

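Total RNA of whole thymus was measured on 5 two-colour Agilent oligonucleotide arrays. Per the series text, images were read with GenePix and analysed in GeneTraffic 2.6 with lowess normalization, which left out spots dimmer than background or of low intensity. The values are log2 ratios deposited by the authors (22575 spots, 0 missing). The values show base 2, since 100.0% were the log2 of a fold with 2 decimals. Spot brightness was not analysed here, so dim spots stay in, and the number of arrays limits the precision.

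The deposited probe numbers did not pair values with genes. Rows and columns of the slide were exchanged, which put 256 of 256 very low spots (under -1.5 on every array) on probes without a gene, against 215 on named probes under the deposited numbers. Under those numbers 2 probes of a gene correlated at 0.01. Of 18218 probes with 1 gene, 18175 matched the RefSeq gene table by gene number; 16 had several genes and 4341 none. Probes of a gene were averaged. Position correction left out the 256 spots.

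Limma fitted the mean of each of 20861 features and tested it against 0 (limma 3.58.1, R 4.3.3) and Benjamini-Hochberg adjustment at 0.05, on both scales. P-values rest on the spread between animal pairs, technical spread included. Steps were tested on simulated data. In independent noise with the spread of each feature, 100 features were shifted by 0.5 and 100 by 1.0. Limma recovered 38% and 76% of these with the spread as deposited, and 46% and 86% with that after correction. False calls were 7 and 5 of 20661 other features. Fewer features were shifted than passed in the real data, so these shares need not hold there. Named genes were the members, Hivep3 and, from each list, genes past the threshold on both scales or else the 3 with the smallest corrected p. Other genes were named after their values were seen. Members, lists and tests were chosen with earlier results of these data known. Alternatives were other windows, column and row medians, centring, scaling, robust eBayes, array weights and each array left out.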

Additional observations from a re-analysis of the deposited data

How the results depend on the processing

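With each array left out, the number of factors past the threshold as deposited ran from 1 (without array 4 or 5, where Lef1 alone passed) to 4 (without array 2), and after position correction it was 0 each time. Array weights, which favour array 5 and count array 2 least, gave 5 as deposited (adding Tcf12 and Ikzf1) and 3 after correction (Lef1, Tcf12 and Bcl11b). A threshold of 0.1 gave 5 and 1, and arrays scaled to a common spread gave 1 after correction (Lef1). The other windows, column and row medians, centring, robust eBayes, single probes and a fit of named genes alone left both counts at 3 and 0 where they were run. Under the deposited probe numbers, where the names fall on other spots, 3 passed as deposited, none of them among the 3 called here, and 1 after correction. With an array left out, the 1.5-fold rule was eased to at least 3 of the 4 arrays left. It then gave between 0 and 1 gene (Lef1, without array 3 or 4). The 5 lists of partners and targets, without the cell type markers, held 24, 21, 21, 29 and 32 measured genes. Of these, 34 passed as deposited, where 24.8% of all named genes passed. This became 65 with array weights and between 7 and 40 with an array left out. After correction 3 of these list genes passed, where 2.91% of all named genes passed. It was 11 with scaling, 29 with weights and between 0 and 12 with an array left out. Shares of all named genes under these other settings were not counted. Signs changed for means near 0: over the fits without one array, Id2 ran from -0.13 to 0.02 and Id3 from -0.14 to 0.01 as deposited, corrected Id3 from -0.10 to 0.06, corrected Ikzf3 from -0.12 to 0.13 (-0.07 with weights) and Klf2 from -0.10 to 0.01. Tcf3 minus Tcf12 ran from -0.08 to 0.10 and Id2 minus Id3 from -0.07 to 0.11, and -0.12 after correction. For these the cause was not tested. Each ratio already pairs 1 thymus of either genotype, so the fits use this pairing and no further paired analysis was run.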

Other observations

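Satb1, the gene of a chromatin organiser of thymocytes, had ratios as deposited much like those of Ikzf1 array by array. It was singled out after its values were seen. As deposited Satb1 had -1.04, -0.06, -0.01, -0.20 and -0.75 on arrays 1 to 5, beside -1.17, -0.11, -0.04, -0.36 and -0.78 for Ikzf1. After correction Satb1 had -1.12, -0.07, -0.14, -0.42 and -0.86, and Ikzf1 had -1.03, 0.07, 0.15, -0.08 and -0.62. Its spot lay in column 76 and that of Ikzf1 in column 4. Ets1, a T lineage factor, had -0.71, 0.12, 0.12, -0.30 and -0.68, and Runx1, the partner of Ikaros and E proteins at many T cell genes, had -0.40, 0.10, 0.18, -0.49 and -0.70 as deposited. Corrected, Ets1 had -0.63, 0.35, 0.26, -0.20 and -0.59, and Runx1 had -0.28, 0.34, 0.38, -0.20 and -0.57. None of these 3 genes passed the threshold on either scale in limma (adjusted p from 0.1118 to 0.802), and 5 arrays are too few for a correlation to be given. The thymocyte and T cell marker medians on the same arrays are given above. Patz1 and Stat5b were also lowest on arrays 1 and 5 as deposited, and how many named genes ran this way was not counted.

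Tcf4, the E protein gene that is not among the 8, had a corrected mean of -0.44 ± 0.25 (SD, n = 5; limma adjusted p = 0.0623), negative on 5 of 5 arrays, and -0.33 ± 0.27 as deposited. Ikzf4, the gene of Eos, was positive on 4 of 5 arrays, with -0.19 on array 2 and between 0.44 and 0.87 on the others as deposited (mean 0.47; adjusted p = 0.0651), and a mean of 0.36 after correction (adjusted p = 0.161), opposite in sign to Ikzf1 on the arrays where Ikzf1 was lowest.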
